A study of Mus musculus with 6 samples.

Results

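The dystrophin-glycoprotein complex is described here in mouse gastrocnemius (GAS) muscle through 8 of its genes, taken by symbol from a table of 24532 genes: *Dmd*, *Utrn*, *Dag1*, *Sgca*, *Sgcb*, *Sgcd*, *Dtna* and *Sntb1*. Their transcripts were counted by RNA-seq in 3 libraries from WT mice (*Sirt6* flox/flox) and 3 from *Sirt6* KO mice (*Sirt6* flox/flox with *Myl1-Cre*), all C57BL/6 males of 20 weeks, with 1 library per animal. Both groups carry the floxed *Sirt6* alleles, and the WT mice carry no Cre. The Cre is expressed from the *Myl1* promoter, which works chiefly in fast fibers, while the RNA came from the whole muscle. *Sirt6* encodes a nuclear NAD-dependent deacetylase, and the comparison asks how its loss in fast myofibers changes the transcriptome of the whole muscle.

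The complex spans the membrane of the myofiber and ties the actin cytoskeleton to the basement membrane. Dystrophin binds actin inside the cell and β-dystroglycan at the membrane, α-dystroglycan binds laminin outside it, the sarcoglycans stabilize the assembly, and dystrobrevin and syntrophins hold signaling proteins such as neuronal nitric oxide synthase. Loss of dystrophin causes Duchenne muscular dystrophy, loss of a sarcoglycan causes a form of limb-girdle muscular dystrophy, and utrophin, the autosomal relative of dystrophin, is concentrated at neuromuscular and myotendinous junctions in adult muscle.

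*Sirt6* itself read 2.77, 2.23 and 2.88 normalized CPM (counts scaled to a common library size) in WT libraries 1, 2 and 3 and 7.81, 7.44 and 6.68 in libraries labelled *Sirt6* KO 1, 2 and 3. The targeted gene was thus higher in the group labelled KO (log2 fold change 1.48, SE 0.17, adjusted p = 0.0113, edgeR quasi-likelihood test), which goes against the labels, although reads on the floxed exons cannot be separated from the rest in these counts. *Myl1*, whose promoter drives Cre, differed by -0.05 (adjusted p = 0.916). Every direction below rests on the labels. Library totals lay between 44845763 and 63016899 counts, and 1 count was worth 0.0165 to 0.0212 CPM. The tissue label fitted the data, since 8 fast-fiber genes such as *Myh4* and *Ckm* summed to between 118084 and 194430 CPM. WT library 3 stood apart from the other WT libraries. The summed level of 9 slow-fiber genes, *Myh7* among them, was 4335, 3611 and 169 CPM in WT and 429, 2533 and 595 CPM in libraries labelled *Sirt6* KO, so slow-fiber content varied within both groups.

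The complex did not move as a unit. *Dmd* fell, *Sgca* rose, and the other 6 members did not pass the test. Among all 13801 genes tested, 8.39% passed an adjusted p of 0.05 in the lower direction and 7.85% in the higher, so 1 of 8 members in each direction is close to that background. The median log2 fold change of the 8 members was -0.00 against -0.02 over all genes. In normalized CPM, 2 members had all 3 values labelled *Sirt6* KO below all WT values (*Dmd*, *Utrn*) and 2 had them above (*Sgca*, *Dag1*). Over all genes, 19.6% were apart in the lower direction and 20.3% in the higher. No member changed more than 2-fold at an unadjusted p under 0.05 in edgeR, a rule that 7.83% of all genes passed. Without the 2-fold condition, 3 members had such a p, against 35.3% of all genes, and DESeq2 called 3 members at an adjusted p under 0.05, against 24.5% of the genes it adjusted. Both member counts are close to the background.

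**Figure D1:**
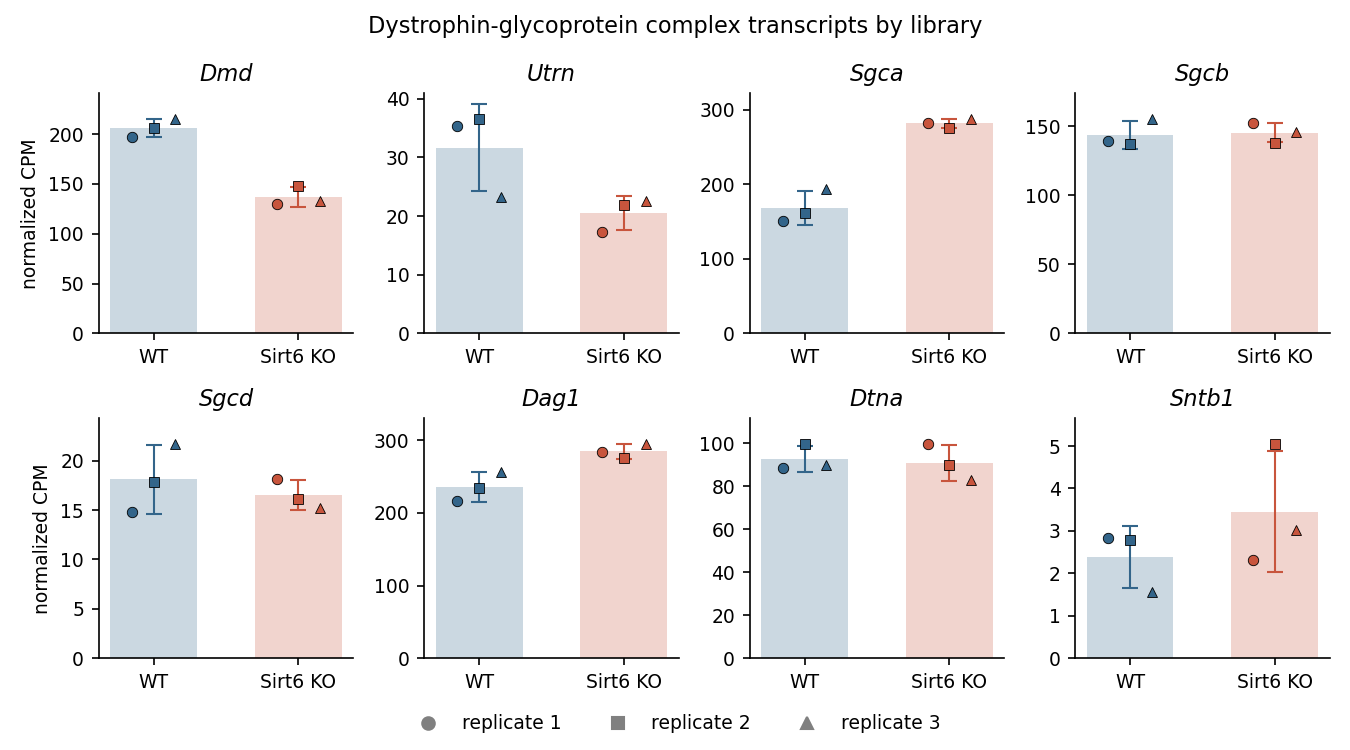
Normalized CPM (y axis, from 0) of the 8 members in each of 6 libraries, with bars for the group mean, error bars for the SD (n = 3) and a marker shape for each replicate number. *Dmd* and *Sgca* separate the groups widely, *Utrn* and *Dag1* narrowly, and the other 4 members overlap.

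The sequences before the start sites are shown first for the called genes *Dmd* and *Sgca*, and for *Dag1* as a window of contrasting base composition. NCBI RefSeq on GRCm38.p6 gives 8 start sites for 6 of the members, and none for *Dtna* or *Sntb1* in the table used. The 250 bases before each site are printed 5′ to 3′ on the gene's strand. Capitals mark matches to a CArG box or MEF2 site (*Dmd*) or to a GC box (*Dag1*), and *Sgca* has no match. Further sites of *Dmd*, *Utrn* and *Sgcd* lie outside these windows, since these annotated genes extend upstream of them. The counts per gene do not separate start sites.
*Dmd*, chrX:82948620-82948869, plus strand: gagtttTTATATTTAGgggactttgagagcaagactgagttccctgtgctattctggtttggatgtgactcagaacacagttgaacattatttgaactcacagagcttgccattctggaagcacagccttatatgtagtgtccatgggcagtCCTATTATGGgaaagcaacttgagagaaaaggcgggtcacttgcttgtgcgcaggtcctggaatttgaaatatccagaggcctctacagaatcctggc
*Sgca*, chr11:94976328-94976577, minus strand: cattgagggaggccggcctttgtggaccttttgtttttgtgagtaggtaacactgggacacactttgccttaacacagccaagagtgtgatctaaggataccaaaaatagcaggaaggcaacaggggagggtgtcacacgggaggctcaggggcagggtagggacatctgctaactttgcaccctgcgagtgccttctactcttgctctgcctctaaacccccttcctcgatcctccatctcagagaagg
*Dag1*, chr9:108263959-108264208, minus strand: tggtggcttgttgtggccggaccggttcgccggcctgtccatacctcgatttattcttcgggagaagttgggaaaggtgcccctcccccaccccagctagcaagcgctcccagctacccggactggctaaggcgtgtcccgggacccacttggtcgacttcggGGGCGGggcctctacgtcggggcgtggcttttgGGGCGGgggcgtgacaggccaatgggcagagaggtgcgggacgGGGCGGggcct

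The 3 windows printed differ in base composition. GC content was 45.2% in the *Dmd* window, 52.8% in that of *Sgca* and 67.6% in that of *Dag1*, against a median of 52.4% over all 32851 windows. A second *Dmd* window, at the internal start site chrX:85048295, had 60.0% and held 3 GC boxes, a second *Dag1* window had 74.8%, and the *Utrn* window had 46.8%. The printed *Dmd* window held a CArG box, the site of serum response factor, at positions -98 to -89 from the start, and an MEF2 site at -244 to -235. Those motifs were added after the *Dmd* sequence had been seen, and they occur in 1.47% and 2.92% of all windows. The *Dag1* window held 3 GC boxes (GGGCGG or CCGCCC), a motif present in 5 of the 8 member windows and in 32.7% of all windows. The *Dag1* windows overlap and hold the same 3 boxes, so these are counted in both. The cAMP response element TGACGTCA, bound by CREB, was in none of the 8 windows and in 1.55% of all, and its half-site TGACG or CGTCA was in none and in 17.8%. The E-box CAGCTG was also in none of the 8 and in 13.0% of all, and the M-CAT motif CATTCC or GGAATG was in 1 window (*Sgcd*) and in 12.6% of all. These matches are letters in a window and do not show that a factor binds or does not bind.

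*Dmd* (NCBI gene 13405; chrX:82814664-85205050), the dystrophin gene and one of the longest in the genome, was counted at 197, 206 and 215 CPM in WT and at 130, 148 and 133 CPM in libraries labelled *Sirt6* KO. The highest of the latter lay below the lowest WT library. The means were 206 ± 8.93 and 137 ± 9.61 CPM (SD, n = 3 each), a fall of the log2 level by 0.59 (SE 0.11, 95% interval -0.84 to -0.33) or to 0.666 of the WT level, with an adjusted p of 0.0189 in edgeR's quasi-likelihood test. In bulk muscle RNA, fewer cells that make a transcript and less of it per cell cannot be told apart. The deposited TPM, which are scaled to transcript length, showed the same separation, with 34.7, 36.1 and 30.5 in WT and 20.4, 21.6 and 19.5 in libraries labelled *Sirt6* KO. The mean transcript length behind the counts, worked out after these values were seen from the ratio of count to FPKM, was 12858 to 13653 bases in the 6 libraries and overlapped between the groups, close to the longest annotated transcript of 14910 bases.

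The *Dmd* call was not kept in all fits with 1 library left out, nor with the GC or length trend removed. It was lost without WT 1, WT 2, KO 1 or KO 3 (adjusted p = 0.0557, 0.0710, 0.0816 and 0.0999, edgeR), while the log2 fold change stayed between -0.63 and -0.55. The unadjusted p lay between 0.00104 and 0.00802 over the 6 fits (edgeR). Few genes of the whole table were called without KO 1 (2 lower, 6 higher) or without KO 3 (5 lower, 8 higher). *Dmd* transcripts are long and of low GC content (41.5%, the 10.2 percentile of genes tested), and across all genes tested the change was related to GC content (Spearman's rho 0.334 over 13715 genes, which are not independent replicates). With each library's trend over GC content removed, the *Dmd* change was -0.31 (adjusted p = 0.117), and with the trend over transcript length removed it was -0.42 (adjusted p = 0.0573).

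**Figure D2:**
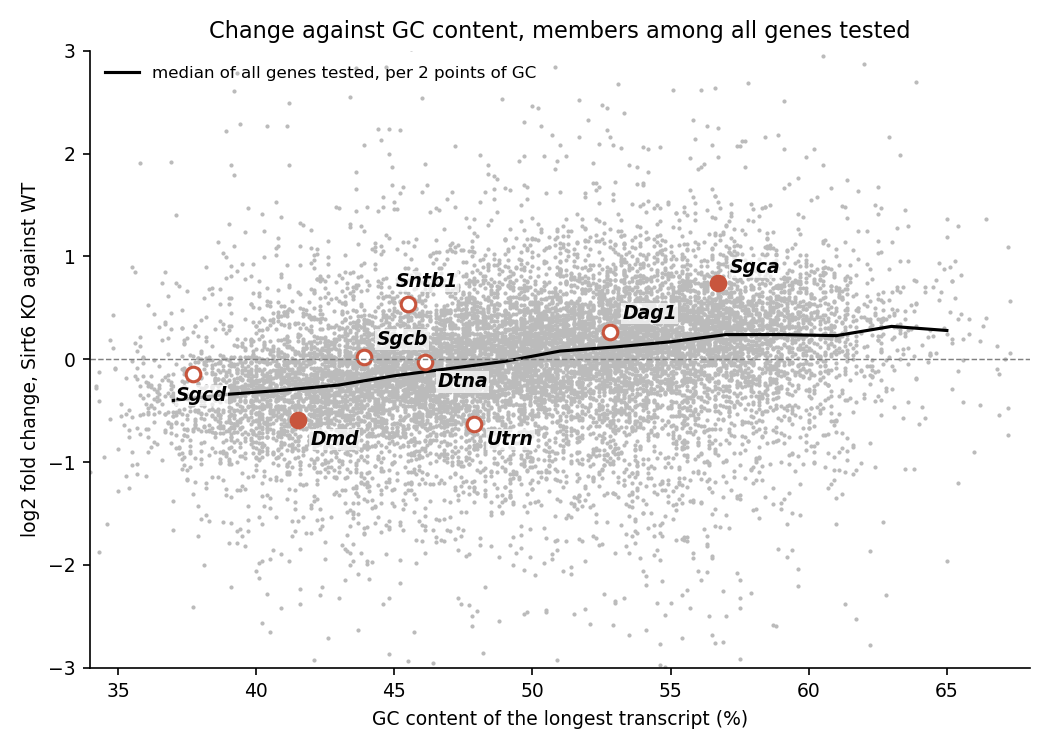
Log2 fold change of *Sirt6* KO against WT (y axis, cut at 3 either way) against the GC content of the longest transcript in percent (x axis) for all genes tested with a GC value (grey), with their median per 2 percentage points (line) and the 8 members (filled where called). The median runs from -0.40 at 36 to 38% GC to 0.24 at 56 to 58%, *Dmd* lies on the low-GC side below it, and *Sgca* on the high-GC side above it.

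*Utrn* (chr10:12382187-12869888), the gene of utrophin, read 35.3, 36.5 and 23.2 CPM in WT and 17.2, 21.8 and 22.6 CPM in libraries labelled *Sirt6* KO. WT 3 lay close to the other group, and in TPM it met the highest library labelled KO, both at 3.62. The difference of -0.63 (SE 0.20, 95% interval -1.09 to -0.17) did not pass the test over all genes (adjusted p = 0.0686, edgeR). Without WT 3 it was -0.80 (adjusted p = 0.00945), and DESeq2 gave an adjusted p of 0.0271.

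Utrophin is also made by vessels and nerve, and the levels of markers of those cells are given by library. The summed level of 8 endothelial genes was 282, 305 and 164 CPM in WT and 208, 206 and 217 CPM in libraries labelled *Sirt6* KO. Among 5 smooth muscle genes, whose sum was 118, 147 and 78.8 CPM in WT and 71.9 to 82.8 CPM in the other group, *Cnn1* (calponin) was called lower (-2.02, adjusted p = 0.0452), but not with the GC trend removed (adjusted p = 0.0582). The sum of 7 Schwann cell genes ranged from 12.7 to 33.8 CPM in WT and from 11.0 to 22.2 CPM in the other group. WT 3 had the lowest WT sum in all 3 lists, as it had the lowest *Utrn* in WT. It also had the lowest WT sum of 6 fibroblast, 4 adipocyte and 5 erythroid genes, but not of 6 macrophage or 4 satellite cell genes. The endothelial sum of WT 3 lay below all libraries labelled *Sirt6* KO, whereas its *Utrn* lay above them. The part of these cells in the *Utrn* values was not tested.

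Utrophin can take over part of the role of dystrophin, and the ratio of *Utrn* to *Dmd* did not separate the groups. It was 0.179, 0.178 and 0.108 in WT and 0.132, 0.147 and 0.170 in libraries labelled *Sirt6* KO, in normalized CPM. The log2 difference was -0.02 (two-sided exact permutation test, p = 1.00, where 3 against 3 libraries cannot go below 0.1), with means of 0.155 ± 0.0406 and 0.150 ± 0.0189 (SD, n = 3 each).

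*Dag1* (chr9:108204861-108263977) encodes both dystroglycan subunits, the link between dystrophin and laminin. It was counted at 216, 235 and 257 CPM in WT and 284, 275 and 295 CPM in libraries labelled *Sirt6* KO. All of the latter were above WT, but the difference of 0.27 (SE 0.12, 95% interval -0.00 to 0.54) missed the threshold (adjusted p = 0.145, edgeR). Removing the GC trend left 0.14 (adjusted p = 0.460). Without WT 3 it was 0.34 (adjusted p = 0.0346), and limma on log2(FPKM + 1) gave 0.30 (adjusted p = 0.0188).

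Of the 3 sarcoglycans, *Sgca* was called, and *Sgcb* and *Sgcd* were not. *Sgca* (chr11:94962777-94976327), whose product α-sarcoglycan is the muscle-specific subunit, read 150, 161 and 194 CPM in WT and 282, 275 and 287 CPM in libraries labelled *Sirt6* KO. The lowest of the latter was well above the highest WT library, WT 3. The means were 168 ± 23.1 and 281 ± 5.85 CPM (SD, n = 3 each), a rise of 0.74 on the log2 scale (SE 0.13, 95% interval 0.43 to 1.05), 1.67-fold, with an adjusted p of 0.0171 in edgeR's quasi-likelihood test.

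As for *Dmd*, the *Sgca* call was lost without WT 1, WT 2, KO 1 or KO 3 (adjusted p = 0.0564, 0.0698, 0.0705 and 0.0842, edgeR), with changes between 0.68 and 0.86 over the 6 fits. The unadjusted p lay between 5.67e-05 and 0.00416 (edgeR), and few genes at all were called without KO 1 or without KO 3. *Sgca* has a short transcript (1724 bases) of high GC content (56.7%, the 85.4 percentile). With the GC trend removed its change was 0.52 (adjusted p = 0.0575), and with the length trend removed 0.68 (adjusted p = 0.0204). *Dmd* and *Sgca* thus lie on opposite sides of both trends.

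*Sgcb* (chr5:73632749-73647737), the gene of β-sarcoglycan, a core subunit with δ-sarcoglycan, was at 139, 137 and 155 CPM in WT and 152, 138 and 146 CPM in libraries labelled *Sirt6* KO. These values overlapped throughout, and the 95% interval of the log2 difference was -0.23 to 0.27 around 0.02. *Sgcd* (chr11:46971077-47989451), the gene of δ-sarcoglycan, was at 14.8, 17.8 and 21.7 CPM in WT and 18.2, 16.1 and 15.2 CPM in the other group. Its difference of -0.14 (95% interval -0.51 to 0.24) became 0.25 with the GC trend removed, with an adjusted p of 0.585 in the first case and 0.326 in the second (edgeR). A change of 0.74, the *Sgca* rise with no trend removed, lay outside both intervals, which come from that same fit. With the GC trend removed, the changes were closer, at 0.52 for *Sgca* (SE 0.13), 0.21 for *Sgcb* (SE 0.11) and 0.25 for *Sgcd* (SE 0.16). The GC value of *Sgcd* is that of a transcript of 4453 bases, whereas the ratio of its counts to FPKM gives 1402 bases.

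The 2 cytoplasmic members gave no call. *Dtna*, on chromosome 18, encodes α-dystrobrevin, a dystrophin-related scaffold, and was at 88.5, 99.4 and 89.8 CPM in WT and 99.6, 90.0 and 83.0 CPM in libraries labelled *Sirt6* KO. Its interval ran from -0.29 to 0.24 (adjusted p = 0.888, edgeR). *Sntb1* (chr15:55636388-55907302), the gene of β1-syntrophin, was the lowest member, at 2.83, 2.78 and 1.55 CPM in WT and 2.31, 5.05 and 3.01 CPM in the other group. Library KO 2 was the highest, and the estimate of 0.54 (95% interval -0.30 to 1.38, adjusted p = 0.320, edgeR) was 0.17 without it. The 6 libraries held 89 to 306 counts of it, and those labelled *Sirt6* KO differed among themselves more than the group means did.

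*Dtna* was the member whose transcript mix varied most between libraries. The mean transcript length behind its counts, derived as for *Dmd*, was 3253, 3094 and 3620 bases in WT and 3822, 3402 and 3949 bases in libraries labelled *Sirt6* KO, a spread of 27.7%. Over 6220 genes with 1 annotated transcript the median spread was 0.0715%. Their length cannot vary, so this value shows only the error of the derivation. Of the other members with several transcripts, *Dmd* had a spread of 6.18% and *Dag1* of 0.611%. The spread over all genes with several transcripts was not worked out. For *Dtna* the groups overlapped (exact permutation test, p = 0.200). The 3 libraries with the highest slow-fiber sums, WT 1, WT 2 and KO 2, had the 3 shortest means; the part of fiber type in this was not tested.

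**Figure D3:**
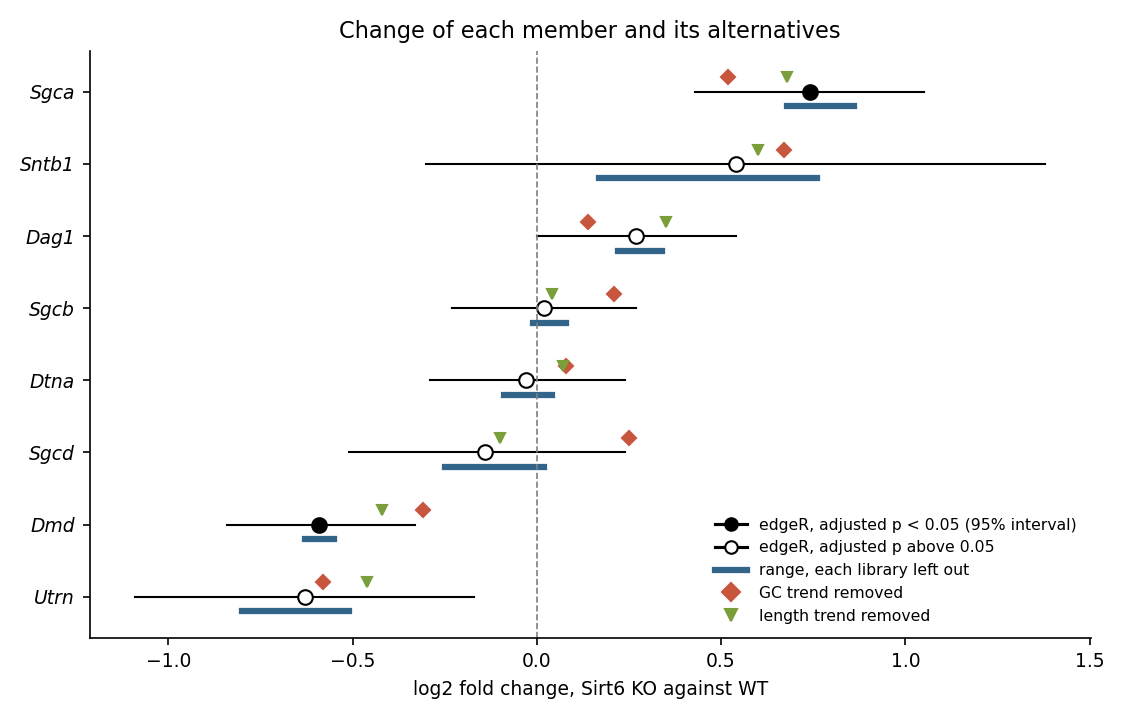
Log2 fold change of *Sirt6* KO against WT (x axis) for each member (y axis): circles with 95% intervals are edgeR's estimates, filled where the adjusted p is under 0.05, bars span the fits with each library left out, and symbols give the change with the GC or length trend removed. *Dmd*, *Utrn*, *Sgca*, *Dag1* and *Sntb1* keep their sign under these fits, while *Sgcb*, *Sgcd* and *Dtna* cross 0.

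On the length-scaled level, the order of the members in WT was *Sgca* at 210 TPM, *Dag1* at 94.1, *Sgcb* at 84.3, *Dtna* at 62.0, *Dmd* at 33.8, *Sgcd* at 28.0, *Utrn* at 5.71 and *Sntb1* at 2.47. In libraries labelled *Sirt6* KO the order was the same except that *Sgcd* (23.9 TPM) passed *Dmd* (20.5 TPM). The WT ranges of neighbours in this order did not touch, although *Dmd* (30.5 to 36.1 TPM) and *Sgcd* (25.3 to 30.0 TPM) came close. In libraries labelled *Sirt6* KO the ranges of *Dmd* (19.5 to 21.6 TPM) and *Sgcd* (21.5 to 27.3 TPM) overlapped, as did those of *Utrn* and *Sntb1*. The order within those pairs was therefore not settled. The order also depends on the transcript length behind each TPM. For *Sgcd* that was 1402 bases, against a longest transcript of 4453 bases, and for *Sntb1* 2170 bases in WT, against 4919 bases. In normalized CPM, the means in libraries labelled *Sirt6* KO were 16.5 for *Sgcd* and 137 for *Dmd*.

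The ratios between members restate these differences on the length-scaled level and are given as a description, chosen after the values were seen. The ratio of *Sgca* to *Dmd* TPM was 5.96, 5.77 and 7.07 in WT and 16.7, 14.6 and 16.8 in libraries labelled *Sirt6* KO, that is 6.27 ± 0.700 against 16.0 ± 1.24 (SD, n = 3 each). The ratio of *Sgca* to *Sgcb*, subunits of the same subcomplex, was 2.50 ± 0.185 against 4.15 ± 0.157 (SD, n = 3 each). Neither ratio overlapped between the groups, and the share of other gene pairs apart in this way was not worked out. The GC trend was not removed from these TPM. With it removed from the counts, the log2 fold changes were 0.52 for *Sgca*, -0.31 for *Dmd* and 0.21 for *Sgcb* (edgeR).

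**Figure D4:**
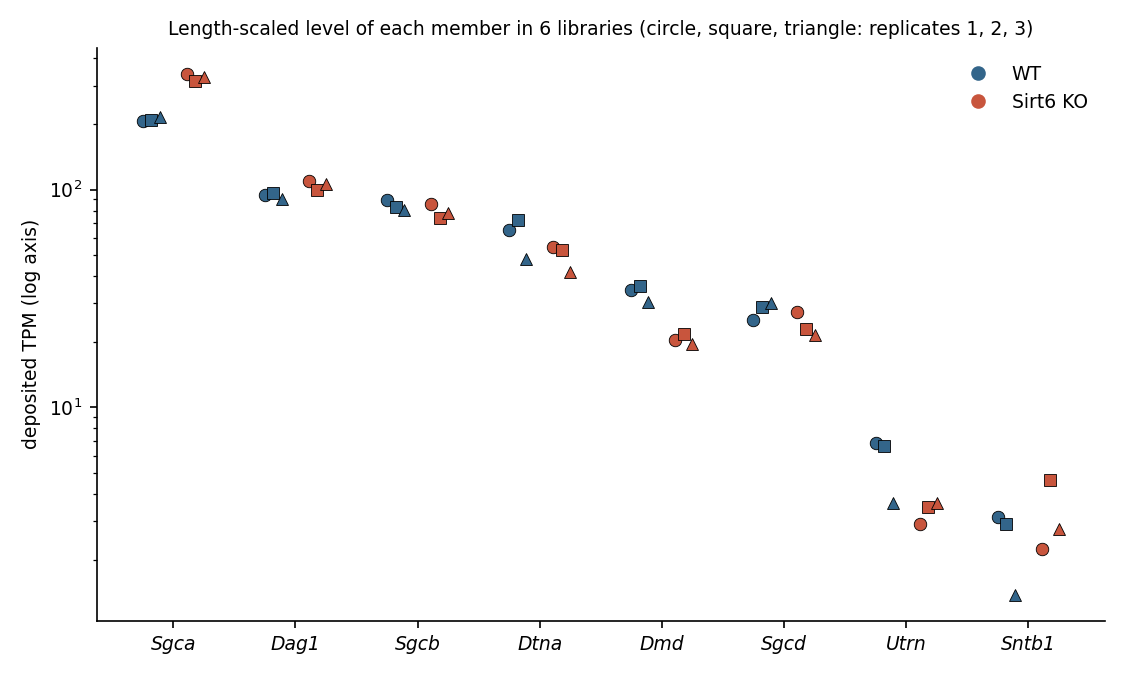
Deposited TPM (log y axis) of each member in the 6 libraries, in the order of the WT means, WT in blue and *Sirt6* KO in red, with a marker shape for each replicate number. *Sgca* has the highest TPM of the members in every library, and *Dmd* falls to the TPM of *Sgcd* in libraries labelled *Sirt6* KO. The TPM of *Sgcd* rest on a transcript length of 1402 bases.

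Of the other genes of the complex, 9 of 12 were tested. *Nos1*, the neuronal nitric oxide synthase that docks on the complex through syntrophin, was the one called, lower at 81.2 to 136 CPM in libraries labelled *Sirt6* KO against 244, 249 and 250 CPM in WT. Its log2 fold change was -1.25 (SE 0.19, adjusted p = 0.0138, edgeR), and -1.41 with the GC trend removed (adjusted p = 0.0210). *Cav3*, the muscle caveolin, differed by 0.27 (adjusted p = 0.140). *Sgce*, *Sspn*, *Sntb2*, *Dtnb* and *Drp2* lay between -0.31 and 0.17, and the median of the list was 0.14. *Sgcz* had no count in any library, and *Sntg1* and *Sntg2* were below the filter on low counts.

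Dystroglycan binds laminin only after its sugar chains are built, and 17 of 18 genes of that pathway were tested. *Pomgnt2* and *B4gat1*, enzymes that build the chain on which laminin-binding matriglycan is made, rose by 0.57 (adjusted p = 0.0483) and 0.41 (adjusted p = 0.0439). None of the list was called lower, and the median was 0.28. Of all genes, 8.39% were called lower and 7.85% higher. Neither *Pomgnt2* nor *B4gat1* was called once the GC trend was removed, and the median of the list was then 0.14. Among 12 matrix genes, *Lamb2*, the laminin β2 chain of the synaptic basement membrane, rose from 126, 128 and 121 CPM to 242, 261 and 248 CPM. Its change of 1.01 (SE 0.10, adjusted p = 0.0110, edgeR) was 0.76 with the GC trend removed (adjusted p = 0.0214). *Lama2*, the laminin chain of the muscle fiber's own basement membrane, named for its role after the values were seen, was at 55.4 CPM in WT and 57.8 CPM in the other group on average.

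The costamere, the lattice under the membrane that the complex belongs to, had 20 of 21 genes tested, with 2 called lower and 2 higher and a median of 0.02. Of all genes, 8.39% were called lower and 7.85% higher. *Flnc*, the muscle filamin that binds sarcoglycans, fell by 0.71 on the log2 scale (adjusted p = 0.0403) and *Ahnak*, a large membrane-associated scaffold, by 0.79 (adjusted p = 0.0290). *Itga7*, the laminin receptor that works beside dystroglycan, rose by 0.83 (adjusted p = 0.0161), from 77.1 to 138 CPM on average. *Dtnbp1*, dysbindin, which binds dystrobrevin, rose by 0.40 (adjusted p = 0.0340). With the GC trend removed, *Flnc* (-0.95, adjusted p = 0.0352) and *Itga7* (0.60, adjusted p = 0.0499) were still called by edgeR, and *Ahnak* and *Dtnbp1* were not.

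Utrophin and dystrobrevin gather at the neuromuscular junction, where 10 genes were tested and 3 were called, all higher. Of all genes, 7.85% were called higher. Changes in this list ran from -0.52 to 1.35, with a median of 0.34. *Chrnb1* rose by 1.27 (adjusted p = 0.0138), *Chrne* by 1.35 (adjusted p = 0.0406) and *Chrna1* by 0.73 (adjusted p = 0.0464). These 3 genes encode subunits of the adult acetylcholine receptor. *Chrnd*, the gene of its remaining subunit, named for its role after the values were seen, was not called (-0.20, adjusted p = 0.737, edgeR). *Lrp4*, the agrin receptor, was at 0.61 (adjusted p = 0.0908) and *Dok7*, the activator of the kinase that organizes the junction, at -0.52 (adjusted p = 0.0905), and neither was called. With the GC trend removed, *Chrnb1* was the one of the 3 still called (1.20, adjusted p = 0.0294), and *Dok7* was called lower (-0.78, adjusted p = 0.0479).

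Fibers that lose the complex are replaced, so 11 regeneration genes were counted, with 1 called lower, 2 higher and a median of -0.01. The shares of all genes were 8.39% called lower and 7.85% higher. *Myog*, the differentiation factor, fell by 0.96 (adjusted p = 0.0246), and *Myf5* and *Pax7*, markers of satellite cells, rose by 1.33 (adjusted p = 0.0225) and 1.28 (adjusted p = 0.0299). *Myh3*, the embryonic myosin of new fibers, was at 22.0 CPM in WT and 36.8 CPM in the other group, apart between the groups but not called (adjusted p = 0.0535, edgeR). The 4 satellite cell genes summed to 18.4 to 25.4 CPM in WT and 33.5 to 45.1 CPM in libraries labelled *Sirt6* KO, with *Cdh15* also called higher (0.97, adjusted p = 0.0243). *Cdh15* held most of that sum, at 14.9 to 23.0 CPM in WT and 29.0 to 39.4 CPM in the other group. *Calcr*, the remaining gene of that list, ran the other way but was not called (-0.63, adjusted p = 0.256, edgeR). Its means were 1.42 CPM in WT and 0.916 CPM in the other group. Without the GC trend, *Myog* and *Myf5* were called, while *Pax7* (1.08, adjusted p = 0.0640) and *Cdh15* (0.72, adjusted p = 0.0731) were not. The part of satellite cell number in these levels was not tested.

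Over these 6 lists together, 14 of 79 tested genes were called, close to the background, since 16.2% of all genes were called in either direction. DESeq2 called 20, against its 24.5% of all genes. None was called by edgeR without KO 1 or without KO 3, where 22 and 19 had an unadjusted p under 0.05 (25.7% and 24.3% of all genes in those fits), nor were *Cnn1* and *Cdh15* called there. With the GC trend removed, 8 of the 79 and none of the 8 members were called, against 6.94% of all genes. An unadjusted p under 0.05 was then found for 3 members and for 29.2% of all genes.

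**Figure D5:**
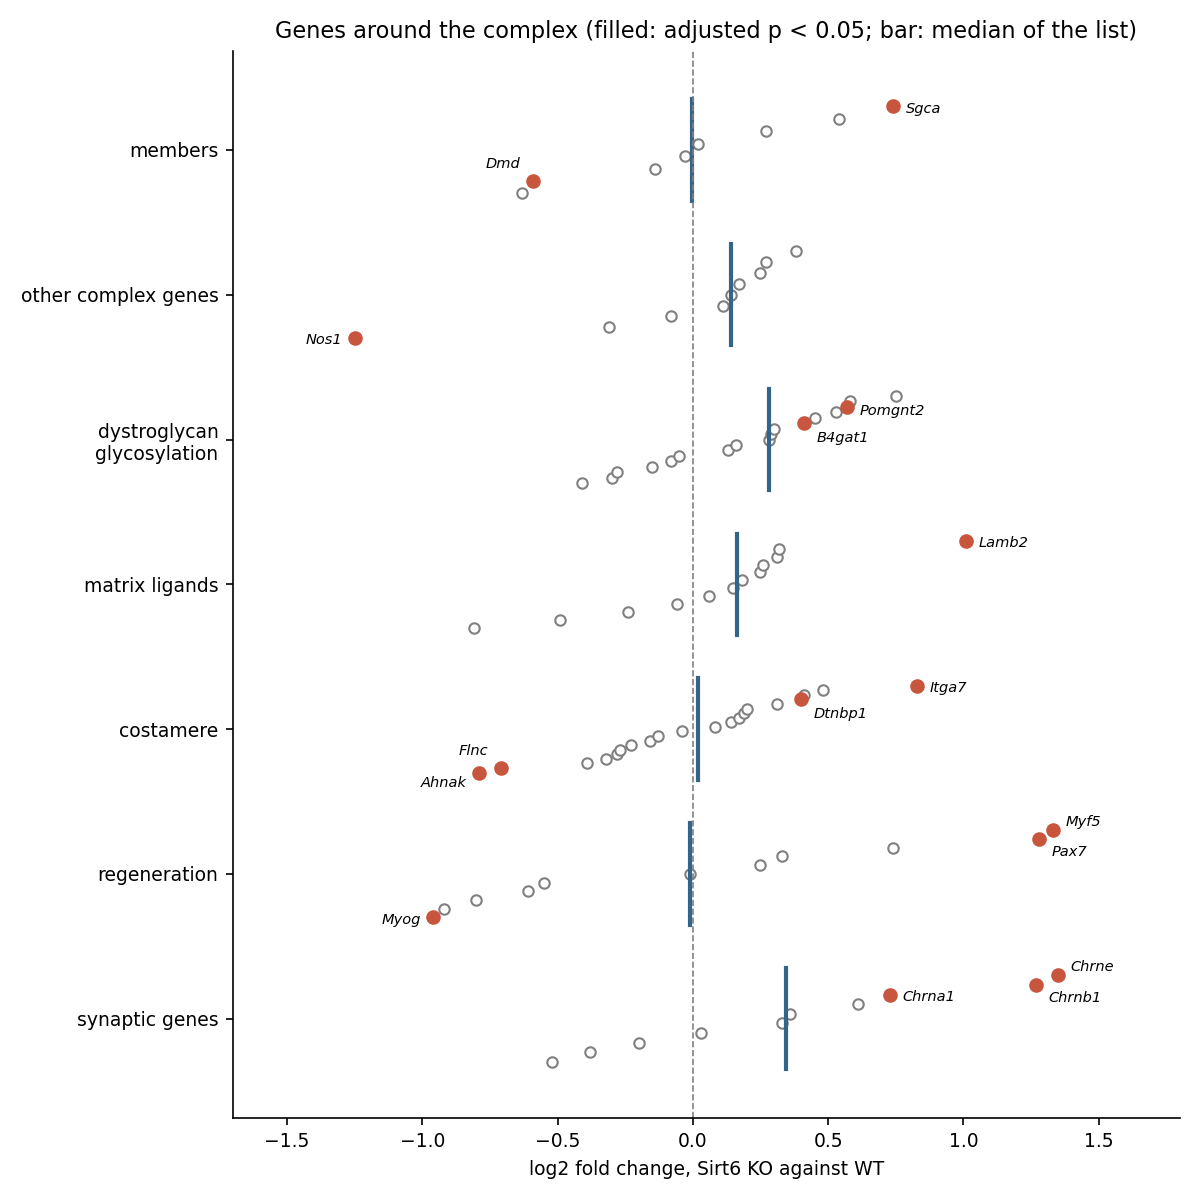
Log2 fold change of *Sirt6* KO against WT (x axis) for the tested genes of the complex and of 6 surrounding lists (y axis), each circle 1 gene, filled and named where the adjusted p is under 0.05 in edgeR, with a bar at the median of each list. The medians lie between -0.01 and 0.34, and *Nos1* is the lowest gene of all the lists.

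By correlation of log2 CPM over the 6 libraries among 11617 genes, the profiles most like that of *Dmd* were *Ugp2* (Pearson's r = 0.9984), *1810013L24Rik* (0.9968), *Atp2b1* (0.9966) and *Picalm* (0.9952). All 4 were called lower. *Ugp2*, which makes UDP-glucose, fell most, by 1.34 on the log2 scale, from 1403, 1575 and 1750 CPM to 534, 777 and 559 CPM (adjusted p = 0.0132, edgeR). The profiles most like that of *Utrn* were *Idua* (0.9950), *Ntn4* (0.9948), *Skil* (0.9932) and *Padi2* (0.9931), none of them called by edgeR, with adjusted p between 0.0593 and 0.116; all share with *Utrn* a WT 3 value below WT 1 and WT 2. These correlations share 6 libraries and include the difference between groups. Between members, *Sgca* and *Dag1* had an r of 0.97, and 0.95 after the group means were subtracted, whereas *Dmd* and *Utrn* had 0.74, and -0.15 after subtraction. Strong values after subtraction were not particular to *Sgca* and *Dag1*. They were also found for *Sgcb* and *Sntb1* (-0.97), *Utrn* and *Sgcb* (-0.91) and *Sgca* and *Sgcd* (0.85).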

How the data were processed

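GAS RNA of 6 mice was sequenced, 1 library each. The submitters' processing notes name HISAT2 2.1.0, Bowtie2 2.3.4.1 and StringTie 2.1.3b on mm10, and the reporting summary names STAR. The methods and the labels name different TruSeq kits, and the strand setting is not given in the sources used here. The counts the authors deposited are whole numbers per gene without normalization between libraries. The FPKM values the authors deposited are scaled to length and library size, and the TPM values they deposited to a fixed sum.

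Counts were fitted for all 13801 genes passing filterByExpr with edgeR 4.0.16 in R 4.3.3 (TMM, quasi-likelihood test, group as the one factor, Benjamini-Hochberg adjustment at 0.05), a procedure tested on simulated data. Levels are TMM-normalized CPM. All adjusted p-values are from this test unless another tool is named. The replicates are separate animals. The common biological coefficient of variation was 24.1%, and intervals on counts of this depth reflect mainly the spread between animals. Alternatives were DESeq2 1.42.0, its size factors, other filters, removal of lowess trends (span 0.3) over GC content or length, a block for the replicate number, leaving out each library, and limma 3.58.1 on FPKM after quantile normalization, as log2 with 1 or 0.1 added. Removing both trends was added after the data were seen. GC content was known for 13715 of the genes tested (99.4%), from the longest GENCODE transcript. Coordinates and sequences are from NCBI RefSeq GRCm38.p6, the build of mm10, matched for 24462 of 24532 gene identifiers. The members and gene lists were chosen with earlier results of these data known. By rule, the text names every member, up to 6 genes of each list by smallest adjusted p, *Sirt6* and *Myl1* as label checks, and the 4 genes whose log2 CPM correlates best with *Dmd* and with *Utrn* among those with a mean of at least 1 CPM; in the complex list further genes are named too. The results of some list genes are not reported here. Replicate numbers did not pair the animals.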

Additional observations from a re-analysis of the deposited data

How the results depend on the processing

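With the settings of the report, the test called 2 members, and 1158 genes lower and 1084 higher. With the GC trend removed, these counts were 0 members, 487 and 471 genes. With the length trend removed, 1 member was called. With both trends removed, an alternative added after the data were seen, they were 0, 496 and 471. DESeq2 called 3 members, and 1732 genes lower and 1665 higher. Leaving out 1 library gave 0 to 4 members, 2 to 2219 genes lower and 6 to 2363 higher, the highest counts without WT 3 and the lowest without KO 1; these fits have fewer samples. Otherwise the cause of these differences was not tested.

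The replicate number as a block gave 2 members called, and with the GC trend also removed 0 members, 318 genes lower and 242 higher. Deviations of same-numbered libraries correlated at -0.106, 0.26 and 0.161, so the numbers were not taken as pairs. No called member changed sign under any alternative. The *Utrn* to *Dmd* ratio moved by less than its spread between replicates under TPM and with each library left out. For *Sntb1*, the spread between libraries limits what can be seen.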
